A study of Drosophila melanogaster with 2 samples.

Results

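The deep intronic peaks of Engrailed-GFP described here were mapped by chromatin immunoprecipitation and sequencing (ChIP-seq) of whole Drosophila melanogaster embryos. These are peaks of the authors' reproducible list whose summit lay inside a gene body, outside every annotated exon and more than 2000 bp from the nearest transcription start site (TSS) of any transcript. The rule used the position of the summit alone and kept 448 of the 2226 peaks (20.1%, exact 95% interval 18.5 to 21.9). The list came from the irreproducible discovery rate (IDR) procedure, which compares rankings between replicates, in genome build dm6.

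All embryos carried the same alleles and came from 1 group. They were of strain 3T-GFP, a transgenic line in which an insertion at en adds GFP to the C-terminus of Engrailed, and were collected at 0 to 16 h of age with both sexes pooled. The precipitation used an antibody against GFP per the deposited description, whereas the antibody field of the labels reads en. The labels give 2 biological replicates, numbered 1 and 3, and no source used here says whether these came from separate collections of embryos. No embryos without the transgene were analysed here, so no value below has a background measured in untagged embryos. In whole embryos, binding in fewer cells and weaker binding in each cell cannot be told apart.

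Engrailed is a homeodomain transcription factor that specifies posterior compartments of the segments, in part by repressing target genes through the corepressor Groucho. Homeodomains of its class recognise short A and T rich cores such as TAATTA and CAATTA. Introns of long Drosophila genes often hold enhancers, the regulatory DNA that drives a gene in particular cells at a distance from its promoter.

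The DNA below the strongest deep intronic summits differed from place to place, and windows of 3 of the 5 strongest members are shown for that reason, with 50 bp to either side of the summit, on the forward strand of the RefSeq release 6 assembly, which has the dm6 coordinates. Capitals mark matches to TAATTA, to CAATTA or to the forkhead core GTAAACA on either strand, so that a match on the reverse strand reads TAATTG or TGTTTAC. The G+C content of these windows was 25.7% at Tlk, 36.6% at Raf and 23.8% at Gug. At CG32486, also among the 5 strongest but not shown, it was higher, at 44.6%.
Tlk, X:3742172-3742272: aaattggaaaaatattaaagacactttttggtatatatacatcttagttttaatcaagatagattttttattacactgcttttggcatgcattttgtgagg
Raf, X:2297667-2297767: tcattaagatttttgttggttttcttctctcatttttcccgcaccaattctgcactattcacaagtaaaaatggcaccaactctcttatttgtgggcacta
Gug, 3L:8458291-8458391: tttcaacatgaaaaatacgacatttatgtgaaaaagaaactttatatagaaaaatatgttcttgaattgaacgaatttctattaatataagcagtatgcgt

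Windows with several homeodomain cores are shown next, since 84 members held TAATTA or CAATTA and only 10 held 2 or more matches. In trx, which encodes a histone methyltransferase of the trithorax group, both cores lay within the window. In CG9328 the window held TAATTA at 2 places, and in fz, the gene of the Wnt receptor Frizzled, the cores overlapped. The fz window is of a weaker peak of that gene, with a pooled signal of 79.0. It ranked 1594 in the pool, 1326 in replicate 1 and 2722 in replicate 3.
trx, 3R:14283849-14283949: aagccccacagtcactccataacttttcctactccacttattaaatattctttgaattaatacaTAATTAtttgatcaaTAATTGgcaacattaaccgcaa
CG9328, 2L:20800074-20800174: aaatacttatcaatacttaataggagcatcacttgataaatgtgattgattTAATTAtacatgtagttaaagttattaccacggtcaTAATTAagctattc
fz, 3L:14364899-14364999: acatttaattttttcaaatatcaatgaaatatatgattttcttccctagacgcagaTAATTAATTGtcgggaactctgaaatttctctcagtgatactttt

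Windows with the forkhead core are shown because this core, of the 25 motifs searched, had the highest ratio at the deep intronic summits to deep intronic windows of the same G+C. The members shown are of high signal and lay in Star (S), Oatp30B and Rbfox1. The core lay within 50 bp of the summit by construction of the windows.
S, 2L:1072328-1072428: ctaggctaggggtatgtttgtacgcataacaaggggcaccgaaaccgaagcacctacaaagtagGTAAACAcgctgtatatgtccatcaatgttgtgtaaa
Oatp30B, 2L:9525828-9525928: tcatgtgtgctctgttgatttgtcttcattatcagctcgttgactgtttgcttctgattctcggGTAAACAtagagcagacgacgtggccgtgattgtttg
Rbfox1, 3L:10519066-10519166: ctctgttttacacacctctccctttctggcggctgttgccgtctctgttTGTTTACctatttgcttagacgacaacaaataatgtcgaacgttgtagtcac

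Each replicate list and the list of the pool held 30000 regions ranked by the authors' signal, and all IDR peaks came from the top of the pooled list. Depth and the control library behind the signal are not known, so signals are compared as ranks and ratios and not as amounts of binding. Of the 7318 deep intronic regions in the pooled list, 448 were IDR peaks (6.12%, exact 95% interval 5.58 to 6.70), beside 7.42% of all pooled regions and 7.84% (7.49 to 8.20) of the 22682 regions elsewhere. The share in deep introns was thus below that of all regions. Deep intronic sequence made up 41.4 Mb, or 30.9% of the 133.9 Mb of the chromosome arms analysed, and held 10.8 IDR summits per Mb, against 19.2 per Mb elsewhere. No test across regions was run for these or later shares, and the intervals cover counting error only.

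Deep intronic peaks were moderate in strength. Their pooled signal ran between 65.3 and 436 with a median of 92.0, against a median of 99.5 for the other 1778 IDR peaks. By class, the other medians were 100.5 at promoters (summit within 500 bp of a TSS, n = 1098), 99.7 in introns near a TSS (n = 341) and 92.7 between genes (n = 283). The median of the deep intronic peaks was thus closest to that of intergenic peaks, which also lie away from promoters. Only 5 deep intronic peaks stood among the 100 strongest IDR peaks, 62 among the 500 strongest and 192 among the 1113 strongest.

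The strongest deep intronic peak lay in an intron of Tousled-like kinase (Tlk), whose product acts in chromatin assembly. It spanned X:3742060-3742381, with a signal of 436 in the pool, 162.6 in replicate 1 and 273.7 in replicate 3. It held rank 37 in the pool, rank 41 in replicate 1 and rank 33 in replicate 3. The summit lay 2325 bp from a Tlk TSS, in the second of 7 introns. The next peak, in the first intron of the leucine-rich repeat gene Lrch, had signals of 405 in the pool, 200.5 in replicate 1 and 200.7 in replicate 3. In Raf, which encodes the kinase that links Ras to MAP kinase, the peak at X:2297575-2297851 had signals of 401 in the pool, 135.3 in replicate 1 and 264.2 in replicate 3. These peaks held ranks 42 and 43 in the pool, so the 3 strongest members followed each other closely.

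Below them came a mixed group of genes. The pooled signal was 326 in CG32486, 317 in Gug, which encodes the corepressor Atrophin, and 276 at a summit inside both CG33158 and argos (aos), the gene of a secreted inhibitor of EGFR. The nuclear receptor gene Hr4 held peaks with signals of 263.1 and 262.8, about 4 kb apart in the same first intron of 10387 bp. Signals of 261 and 260 followed in JIL-1, a histone H3 kinase gene, and in babos. Several of these genes act in chromatin or in signalling, and signals of 252, 242 and 236 followed in Pits, CG12769 and CG32264. The strongest peak in fz, with a signal of 242, is not the one whose window is shown above. It lay 22203 bp from the nearest TSS, the greatest distance among the 20 strongest, followed by 18808 bp for a peak in sbb. The other hosts among the 20 strongest were upSET (224), the remodeller gene Mi-2 together with the elongation factor gene Su(Tpl) (223), the nuclear receptor gene Hr3 (212), the zinc-finger gene sbb (208), S (202) and ImpL2 (201), the gene of a secreted insulin-binding protein.

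Most deep intronic peaks stood at the top of the rankings of both replicates. The IDR procedure compares rankings between replicates, so a high share is in part built in. The values below thus describe the members and are no independent check of how well the replicates agree. Among the 2226 highest regions of each replicate, 302 of the 448 peaks overlapped a region in both (67.4%, exact 95% interval 62.9 to 71.7), against 70.0% (67.8 to 72.1) of the other IDR peaks. Another 57 reached this rank only in replicate 1, 75 only in replicate 3 and 14 in neither. No member was absent from either full replicate list. Each member was paired with the overlapping replicate region of highest signal, and 8 members shared such a region with another member. Without these 8, both replicates held 294 of 440 members among their highest regions (66.8%).

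**Figure D1:**
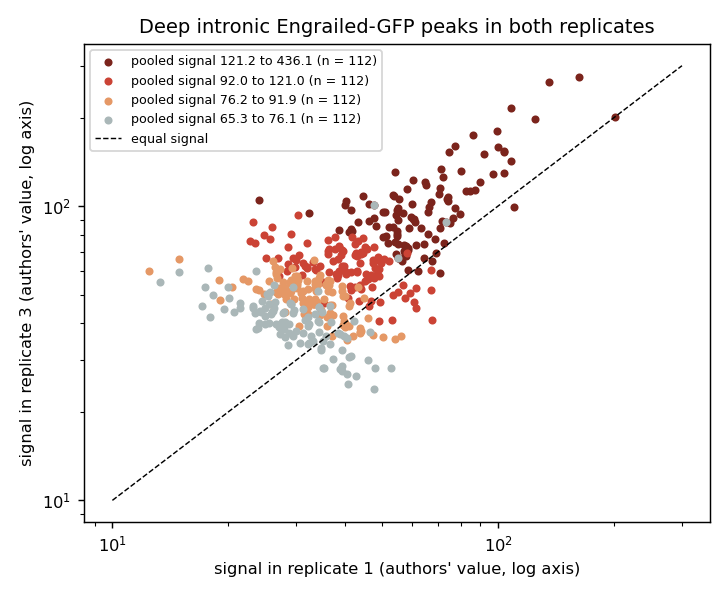
Signal of each of the 448 deep intronic peaks in replicate 1 (x axis) and replicate 3 (y axis), both on log axes, with colours for 4 groups of 112 by pooled signal and a dashed line of equal signal. Most points lie above the line, 387 of 448, and the groups of lower pooled signal spread widely around it.

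The signal was higher in replicate 3 for 387 of the 448 peaks, with a median log2 ratio of replicate 3 over replicate 1 of 0.59 (SD 0.52), close to the 0.61 of the other IDR peaks. The scale of each list is not given, so this shift is not read as a difference in binding. The groups coloured in the plot of the replicate signals differed in how often both replicates held them among their highest regions. Of the 112 members of highest pooled signal, 99.1% were among the highest regions of both replicates, followed by 91.1%, 59.8% and 19.6% of the next groups of 112. The pooled list was built from the same libraries, and all IDR peaks came from its top. Members of low pooled signal lie near the lowest IDR signal of 65.1, so a lower share is built in for them. This order thus describes the ranking and is no independent check of how well the replicates agree.

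Single members show how far the replicates could part. A peak in CHES-1-like (X:7690653-7691048) had a signal of 47.8 at rank 813 in replicate 1 and of 24.0 at rank 6818 in replicate 3. A peak in Mob2 (3L:11555771-11556166), a kinase adaptor gene, had a signal of 12.5 at rank 12657 in replicate 1 and of 60.4 at rank 1047 in replicate 3. Both were IDR peaks, with pooled signals of 69.8 and 76.9. The next members in these orders lay in caps and mew for replicate 1 and in sano and RapGAP1 for replicate 3.

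The rule was also applied to each replicate alone. It kept 437 of the 2226 highest regions of replicate 1 (19.6%, 18 to 21.3) and 440 of those of replicate 3 (19.8%, 18.1 to 21.5), shares close to that of the IDR list. Of the deep intronic regions of replicate 1, 301 overlapped one of replicate 3 (68.9%), and 299 of those of replicate 3 overlapped one of replicate 1 (68.0%).

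Within deep introns, summits thinned out with distance from a TSS. The median distance was 4726 bp for members, against 8001 bp for deep intronic sequence and 5434 bp for the deep intronic pooled regions outside the IDR list. There were 20.4 IDR summits per Mb at 2 to 3 kb, 17.0 at 3 to 5 kb, 12 at 5 to 10 kb, 5.72 at 10 to 20 kb and 2.89 beyond 20 kb. Both replicates gave the same order, with 18.2 per Mb nearest to the TSS and 2.66 farthest away in replicate 1, and 17.8 and 3.01 in replicate 3. The pooled list as a whole thinned out too, with 284.5 regions per Mb at 2 to 3 kb and 48.9 beyond 20 kb. The share of pooled regions that were IDR peaks changed less, with 7.18%, 7.05%, 6.13%, 3.67% and 5.91% in the same order.

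**Figure D2:**
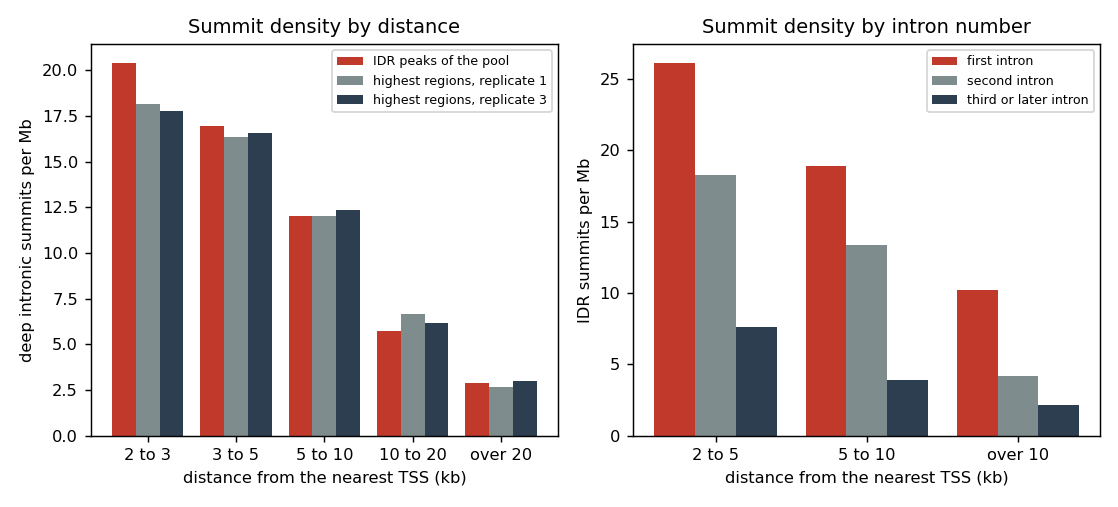
Left, deep intronic summits per Mb of deep intronic sequence (y axis) by distance from the nearest TSS in kb (x axis), for the IDR list and the 2226 highest regions of each replicate. Right, IDR summits per Mb in the first, the second and later introns at 3 distances; in each bin of distance the first intron has the highest bar.

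Members just past the limit of 2000 bp and intronic peaks just short of it had signals in overlapping ranges. The nearest members lay in lncRNA:CR44320, hiw and CHES-1-like, at 2002, 2019 and 2034 bp, with signals of 114.0, 144.1 and 82.5. The intronic IDR peaks just short of the limit lay in fru, CG43867 and msn, at 1942, 1959 and 1971 bp, with signals of 79.4, 119.2 and 109.3. At the other end, the 3 most distant members lay in mamo at 42356 bp and in hth at 47636 and 49875 bp. Homothorax (Hth) is a homeodomain cofactor of Hox proteins, and its gene spans long introns. The farthest peak, 3R:10564203-10564598, had a signal of 80.1 in the pool, at rank 1663 in replicate 1 and rank 1674 in replicate 3.

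The first intron held a larger share of the summits than of the sequence. Of the members, 252 lay in the first intron of the host transcript (56.3%, exact 95% interval 51.5 to 60.9), which makes up 31.0% of deep intronic sequence. The second intron held 131 and later introns held 65, although later introns make up 41.4% of the sequence. Per Mb these were 19.6, 11.5 and 3.79 summits. Pooled regions lay in the first intron often as well, with 3395 of 7318, and the share of pooled regions that were IDR peaks was 7.42% in the first intron, 6.02% in the second and 3.72% in later ones. As first introns lie nearer to a TSS, the comparison was repeated within distance, a choice made after the data were seen. At 2 to 5 kb the first intron held 26.1 summits per Mb, the second 18.3 and later introns 7.61. Beyond 10 kb these were 10.2, 4.17 and 2.13, so the order was the same in these bins as in the pooled comparison.

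The host introns were long. Their median length was 19272 bp, with the shortest of 603 bp and the longest, in kirre, of 133764 bp. Weighted by base, the median intron of deep intronic sequence was 21400 bp, so the length of the host intron was close to what the sequence offers. For 314 members (70.1%) the nearest TSS belonged to the host gene, and for 134 it belonged to another gene.

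Members lay on all 6 arms, with 112 on X, 105 on 3R, 80 on 3L, 78 on 2R, 72 on 2L and 1 on 4. The X held 14.0 per Mb of deep intronic sequence, against 9.36 to 11.1 per Mb on 2L, 2R, 3L and 3R. By the highest regions of each replicate, the X held 12.7 per Mb in replicate 1 and 13.5 in replicate 3, above 2L, 3L and 3R in both. On 2R the densities were 12.6 in replicate 1 and 9.53 in replicate 3, so its distance from the X differed between them. Elsewhere in the genome, the X held 18.9 other IDR peaks per Mb, within the range of 17.9 to 22.4 of the same 4 arms. On 4, 1 of 93 deep intronic pooled regions was an IDR peak (1.08%, 0.0272 to 5.85).

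The 448 summits fell in 316 host genes, 305 of them protein-coding and 11 noncoding. They are 7.29% of the 4333 genes with any deep intronic sequence. The share was higher for genes with more such sequence, with 43 of 2875 genes (1.5%) that have up to 5 kb of deep intronic sequence, 123 of 867 (14.2%) with 5 to 20 kb, 90 of 422 (21.3%) with 20 to 50 kb and 60 of 169 (35.5%) with more. Thus even among the genes with most deep intronic sequence, a majority held no IDR summit there. In all, 105 hosts held 2 or more summits and together accounted for 249 members (55.6%), and 32 held 3 or more.

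Raf and ush, whose product U-shaped is a partner of GATA factors, held the most, with 6 each. The 6 Raf summits all lay in the second intron, 5 of them within 6.4 kb. From 5′ to 3′ their pooled signals were 401, 121.3, 131.3, 80.2, 116.3 and 80.7, so a single strong peak stood before 5 moderate ones. All 6 were among the 2226 highest regions of both replicates. In ush the summits spread over 35.0 kb of the first intron, with signals between 65.7 and 193.1. There, 2 of the 6 lay in overlapping peaks and shared their region in each replicate, so they may not be separate sites. Of the 448 members, 10 overlapped another member in this way.

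**Figure D3:**
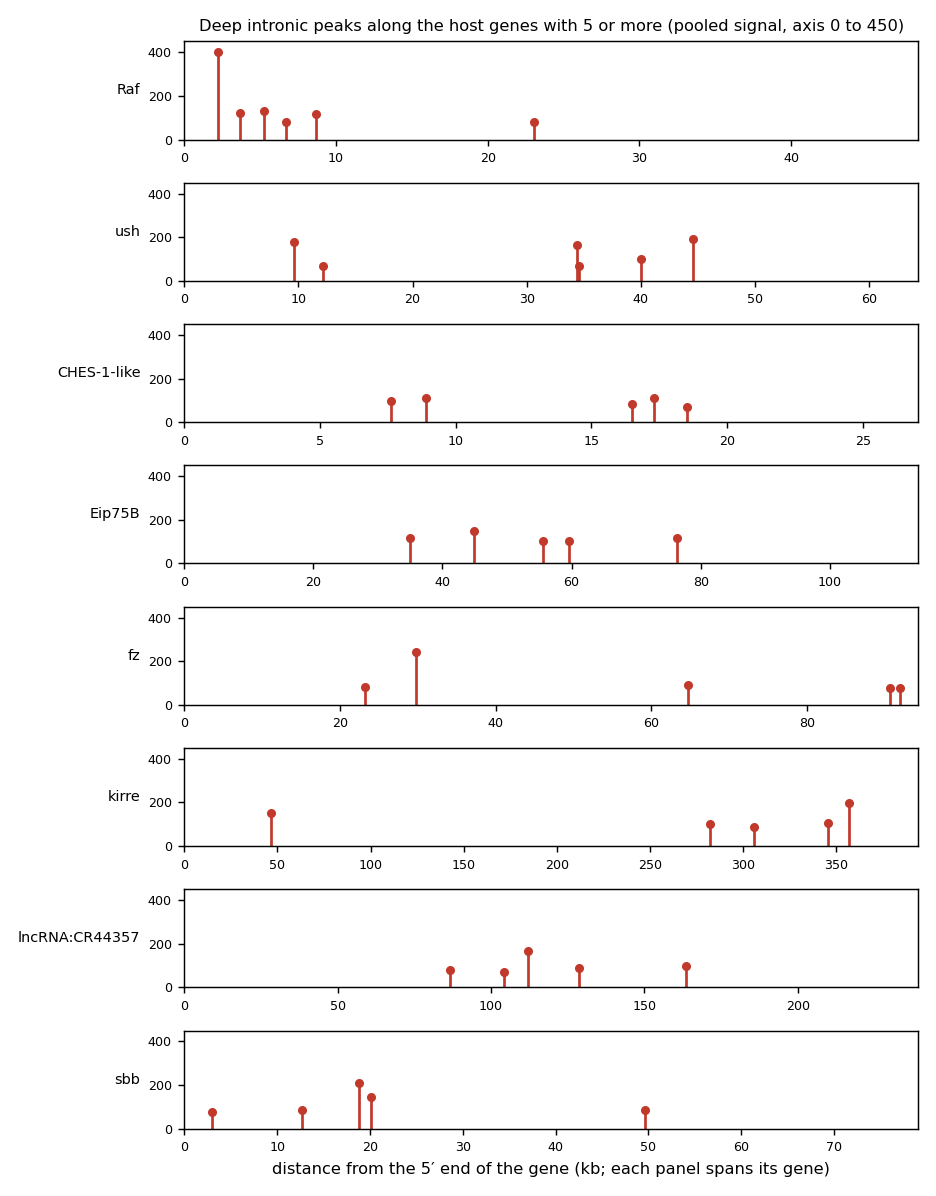
Position of each deep intronic peak along its host gene, in kb from the gene's 5′ end (x axis), against pooled signal (y axis), for the 8 genes with 5 or more. In Raf 5 of 6 summits stand near the 5′ end, whereas those of kirre and Eip75B are spread over long distances.

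CHES-1-like, a forkhead factor gene, was the densest host of those with 5 or more. Its 5 summits in 7.453 kb of deep intronic sequence made 671 per Mb, against 245 per Mb in Raf and 17.4 per Mb in kirre, a gene of 394 kb whose product acts in myoblast fusion. The CHES-1-like peaks were of moderate signal, between 69.8 and 111.9, and fell in 2 groups within the first intron, spanning 10.9 kb. Other hosts of 5 were the ecdysone-induced nuclear receptor gene Eip75B, fz, kirre, lncRNA:CR44357 and sbb. Hosts of 4 were CG42238, RapGAP1, RhoGAP19D, apt and tara. The number differed between replicates in some hosts. By its highest regions, sbb held 8 in replicate 1 and 5 in replicate 3, and RapGAP1 held 2 and 4 in the same order.

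Some summits stood close together, about as often as other IDR peaks did. Runs were counted for members only, so their numbers have no comparison. Runs of members no more than 10 kb apart from one to the next numbered 71 and held 159 members, and 11 runs of 3 or more held 39. The tightest lay in Lrch, with 3 summits in 1.2 kb and signals of 405, 152 and 128, and in babos, with 3 in 2.2 kb and signals of 67.1, 164 and 260. The median distance from a member to the nearest other IDR summit of any class was 7697 bp, against 9319 bp for the other IDR peaks. Within 5 kb, 172 members (38.4%) had such a neighbour, against 36.4% of the other IDR peaks. By class this share was 44.0% in introns near a TSS, 42.9% in exons, 34.4% at promoters and 33.6% between genes. In introns near a TSS the median distance was 6269 bp, shorter than that of the members.

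Hosts were then counted over 15 lists of genes by role, drawn from 665 symbols of which 663 were found in the annotation. Counts are set beside the 7.29% of all genes with deep intronic sequence and beside the overall 10.8 summits per Mb. The 7.29% is not matched for length, as these genes had a median of 1.66 kb of deep intronic sequence. List medians ran from 0.839 kb for cell cycle genes to 26.8 kb for axon guidance genes. Of all genes with 5 to 20 kb, 14.2% were hosts, and of those with 20 to 50 kb, 21.3%. A share above 7.29% is thus not by itself an excess. Of the HLH, ETS and forkhead factor genes, 10 of 26 with deep intronic sequence were hosts (38.5%, exact 95% interval 20.2 to 59.4), at 46.6 summits per Mb. The strongest were the ETS repressor gene aop, with a signal of 187, and its activating counterpart pnt, with 139. After these came the hypoxia factor gene sima (139) and crp (138).

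The EGFR, FGF and Ras list had 11 hosts of 32 genes (34.4%, 18.6 to 53.2) at 44.5 per Mb. These differed in role, and the list does not stand for a single pathway. They included the ligand genes vn (142) and bnl (99.4), the receptor genes Egfr (69.4) and InR (102), the ligand trafficking gene S (202), Raf (401), the nuclear effectors aop and pnt, and the feedback inhibitor aos (276). The remaining hosts were Pvf3 (116) and ths (68.6). The peak in S ranked 98 in replicate 1 and 413 in replicate 3, and that in aos 136 and 95, so both stood near the top of each list. The peak in Egfr ranked 2320 in replicate 1 and 2252 in replicate 3, outside the 2226 highest regions of both.

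Among BMP genes, 5 of 17 were hosts (29.4%, 10.3 to 56.0), at 50.5 per Mb. The ligand gene dpp had a signal of 149, the extracellular regulator genes cv-2 and sog 176 and 107, the inhibitory Smad gene Dad 141 and the nuclear effector gene shn 130. Among Wnt and Hedgehog genes, 6 of 30 were hosts (20%, 7.71 to 38.6), at 25.1 per Mb. Patched (ptc), the Hedgehog receptor gene, had a signal of 128, and the glypican gene dlp had 142. The Wnt coreceptor gene arr had 90.3. For Notch, 2 of 15 genes were hosts (13.3%, 1.66 to 40.5), at 14.1 per Mb. These were the receptor gene N itself with 201 and the coactivator gene mam with 138.

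Among transcription factors, 4 of 15 nuclear receptor genes were hosts (26.7%, 7.79 to 55.1), namely Hr4, Hr3, Eip75B and ftz-f1, which together with 12 summits made 37.1 per Mb. Of 48 zinc finger and BTB factor genes, 11 were hosts (22.9%, 12 to 37.3), at 26.1 per Mb. Its strongest after sbb (208) were ush (193), ken (151) and shn. Homeobox genes had a lower count, with 7 hosts of 54 (13%, 5.37 to 24.9) at 11.8 per Mb, which was close to the overall density. The intervals of the Notch and homeobox lists both hold the 7.29% of all genes. Among homeobox genes the highest signals were 104 in the Hox gene Antp, 95.2 in ct, 92.9 in Lim1 and 91.9 in the Hox gene lab. No homeobox gene reached 105. Polycomb and trithorax group genes had 6 hosts of 28 (21.4%, 8.30 to 41), at 33.1 per Mb. The highest signals there were 183 in trx and 181 in Psc, a subunit gene of a Polycomb complex.

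Ion channel, axon guidance and RNA-binding genes had much deep intronic sequence and summit densities below the overall one. Of 60 ion channel and synapse genes, 3 were hosts (5%, 1.04 to 13.9), at 2.08 summits per Mb, although their median deep intronic length was 19.97 kb. The hosts were Dys (166), scrib (106) and the phosphodiesterase gene dnc (88.3). Axon guidance and cell adhesion genes had 12 hosts of 66 (18.2%, 9.76 to 29.6), at 8.56 per Mb, led by kirre (198), Fas3 (156), the guidance ligand gene sli (132) and Ten-a (110). RNA-binding factor genes had 10 of 33 (30.3%, 15.6 to 48.7) but 9.09 per Mb, led by shep (178), Rbfox1 (132), brat (117) and how (108). The count of the RNA-binding list was 10 by the highest regions of replicate 1 and 6 by those of replicate 3, so it rested in part on 1 replicate.

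Muscle and tracheal genes had 5 of 41 (12.2%, 4.08 to 26.2), at 13.9 per Mb. The highest signals were 140 in rib and 120 in the integrin gene mew. After these came bnl and the muscle factor gene Mef2 (91.3). Cell cycle and apoptosis genes had 3 of 20 (15%, 3.21 to 37.9), at 60.7 per Mb, the highest density of the 15 lists. That density rested on 6 summits in 0.0989 Mb, over genes with a median of 0.839 kb of deep intronic sequence. The intervals of both lists hold the 7.29% of all genes. Their summits lay in ex (112), kibra (97.7) and E2f1 (95.9). Ex and Kibra act upstream in the Hippo pathway.

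The DNA under deep intronic summits was poor in G+C. Within 50 bp of the summit it averaged 34.0% (SD 7.27, n = 448 windows), against 42.7% in flanks centred 400 bp to either side, 38.8% at deep intronic regions outside the IDR list and 40.2% over all 391741 deep intronic windows of this size. It was lower than in both flanks at 289 members (64.5%, exact 95% interval 59.9 to 68.9) and higher than in both at 52 (11.6%). Summits of the deep intronic regions highest in each replicate averaged 34.9% in replicate 1 and 34.0% in replicate 3. IDR peaks of other classes had similar values, with 34.2% in introns near a TSS, 36.1% at promoters and 36.2% between genes. By groups of 112 of decreasing signal, the mean was 33.5%, 33.9%, 34.4% and 34.1%, each with an SD of 6.99 to 7.56, so it did not follow the signal.

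**Figure D4:**
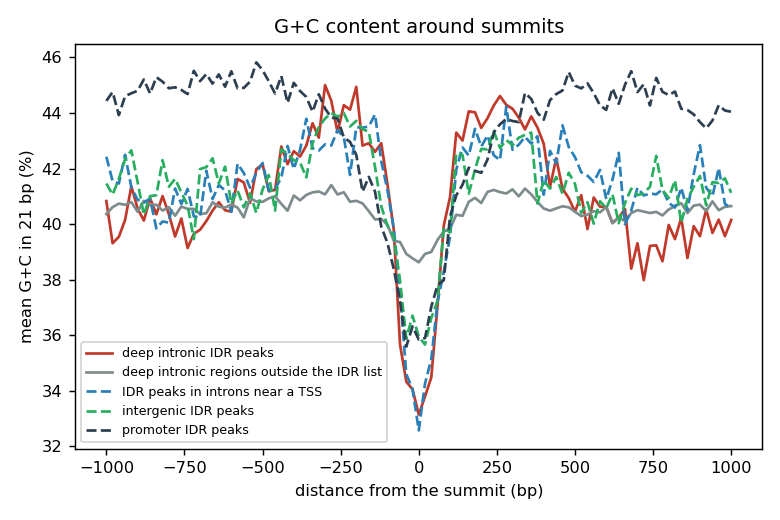
Mean G+C in bins of 21 bp (y axis, %) by distance from the summit in bp (x axis), for deep intronic IDR peaks, deep intronic regions outside the IDR list and IDR peaks of 3 other classes. All curves dip at the summit, to 33.1% for deep intronic IDR peaks and 38.6% for the regions outside the list.

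The dip was narrow. In bins of 21 bp the mean was 33.1% at the summit, 45.0% at 300 bp to the left and 44.2% at 300 bp to the right, and 40.8% and 40.1% at 1000 bp to the left and right. The profile of G+C thus had shoulders above the level of the surrounding intron. Deep intronic regions outside the IDR list had a shallower dip, with 38.6% at the summit and 41.1% and 41.2% at the same 300 bp. G+C content can itself affect library preparation and read mapping. Its part in the ranking of peaks was not tested.

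Homeodomain cores were about as frequent at the summits as in deep intronic windows of the same G+C. A motif was counted when its letters occurred on the forward or reverse strand no more than 50 bp away from the summit, and cores that overlap were each counted. TAATTA occurred at 42 members (9.38%, exact 95% interval 6.84 to 12.5), against 6.81% of flanks, 7.87% of deep intronic regions outside the IDR list and 7.40% of all deep intronic windows. Weighted to the G+C of the members, all deep intronic windows gave 10.2%, a comparison added after the data were seen. CAATTA occurred at 51 members (11.4%, 8.59 to 14.7), against 8.59% of flanks and 12.8% of windows so weighted. Either core occurred at 18.8% (15.2 to 22.7), against 14.7% of flanks and 18.1% of the regions outside the list. By signal, TAATTA was held by 9, 10, 9 and 14 of the groups of 112, from the strongest to the weakest.

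**Figure D5:**
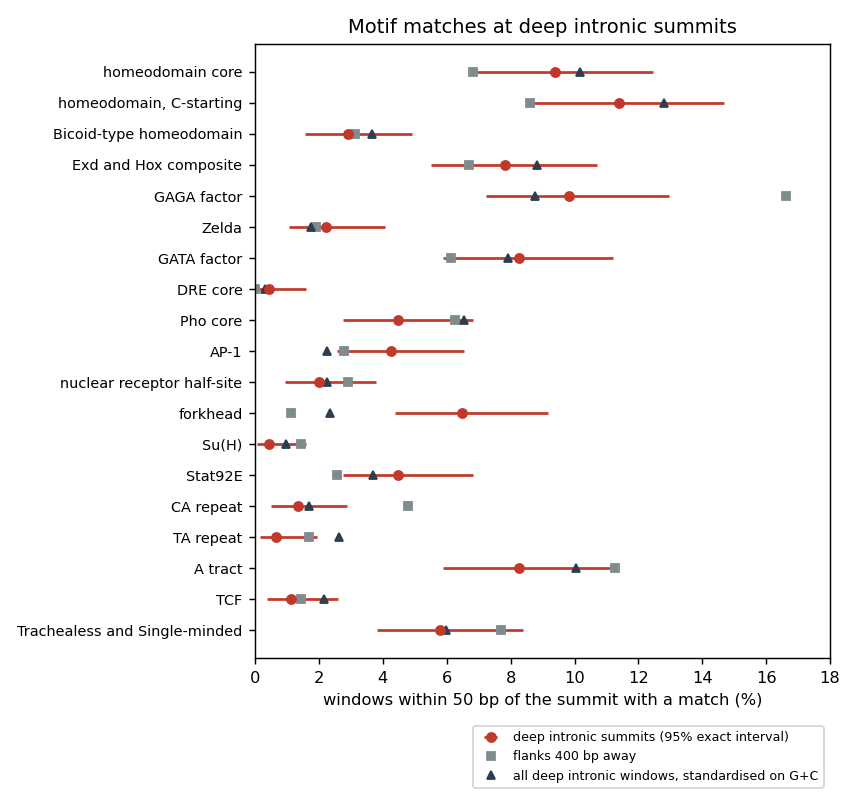
Share of windows that reach 50 bp to either side with a match (x axis, %) for 19 motifs (y axis) at deep intronic summits, with exact 95% intervals over 448 windows, in flanks 400 bp away and in all deep intronic windows weighted to the same G+C; E-boxes and motifs without a match are not drawn. The forkhead core lies at 6.47% with both comparison values below its interval.

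The forkhead core GTAAACA, which is bound by many proteins of that family, occurred at 29 members (6.47%, exact 95% interval 4.38 to 9.16). Flanks held it at 10 of 896 windows (1.12%, 0.536 to 2.04), deep intronic regions outside the IDR list at 3.23%, all deep intronic windows at 2.02% and windows weighted to the members' G+C at 2.35%. The deep intronic regions highest in replicate 1 held it at 6.86% and those highest in replicate 3 at 6.14%. It was not limited to deep introns, since IDR peaks in introns near a TSS held it at 6.16%, those at promoters at 3.92% and those between genes at 3.18%. Along the members it was most frequent next to the summit, with 19 members in the 50 bp to the left and 12 in the 50 bp to the right, against 2 to 9 in the other bins of 50 bp out to 200 bp. The motif was singled out after its values were seen, and a match says nothing about which protein was there.

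The 29 members with GTAAACA lay in 29 different hosts, 18 of them in the first intron and 10 beyond 5000 bp from a TSS. Their median signal was 89.0, against 92.7 for members without it, and their G+C averaged 36.5%, against 33.8%. By decreasing signal the groups of 112 held it at 5, 6, 11 and 7 members. Of the 29, 21 were among the highest regions of both replicates. Their hosts included S, Oatp30B, Rbfox1, Unc-115a, the Hox gene Antp, the muscle factor gene Mef2 and the forkhead factor gene jumu. Among the 25 runs of 8 bases with the largest excess over the flanks, chosen by these values, ATGTTTAC, which holds this core on the reverse strand, had the highest ratio to G+C weighted windows. It occurred at 14 members (3.13%, 1.72 to 5.19), against 0.112% of flanks and 0.625% of weighted windows. TATTTCAA followed, at 22 members (4.91%, 3.10 to 7.34), against 0.558% of flanks and 1.81% of weighted windows.

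Other motifs lay nearer to their comparison values or below them. The AP-1 core TGANTCA occurred at 19 members (4.24%, 2.57 to 6.54), against 2.79% of flanks and 2.24% of weighted windows. The E-box CAGGTG occurred at 17 (3.79%, 2.23 to 6.01), against 3.13% of flanks and 1.88% of weighted windows. For AP-1 and CAGGTG the value of the weighted windows lay below the interval of the members, and that of the flanks inside it. The GATA core AGATAA occurred at 37 (8.26%, 5.88 to 11.2), against 6.14% of flanks and 7.91% of weighted windows. GAGAG, the core of the GAGA factor, occurred at 44 members (9.82%, 7.23 to 13), which was below the 16.6% of flanks and near the 8.76% of weighted windows. The dinucleotide repeat CACACACA occurred at 6 members (1.34%, 0.493 to 2.89), against 4.80% of flanks and 1.68% of weighted windows. CTCTCTCT occurred at none, which allows up to 0.820%, against 2.79% of flanks and 0.450% of weighted windows. The flanks were thus richer in these repeats than the summits, whereas the values of the weighted windows lay inside the intervals of the members.

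Promoter elements were rare, as they were in weighted windows. The DRE core TATCGATA, a site of many housekeeping promoters, occurred at 2 members (0.446%, 0.0541 to 1.60). Weighted windows held it at 0.309% and promoter IDR peaks at 3.28%. The core promoter element Motif 1 (GGTCACACT) occurred at none, which allows up to 0.820%. Weighted windows held it at 0.0425% and promoter IDR peaks at 1.28%. For both elements the value of the weighted windows lay inside the interval of the members. IDR peaks in introns near a TSS held DRE at 0.293% and Motif 1 at 0%, and those between genes at 0% and 0.353%. The repeat TATATATA occurred at 3 members (0.670%, 0.138 to 1.94), against 2.61% of weighted windows. For the other motifs, among them the cores for Zelda (CAGGTA), the Exd and Hox composite (TGATNNAT), Pho (GCCATT) and Stat92E (TTCNNNGAA), the value of the weighted windows lay inside the interval of the members.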

How the data were processed

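The analysis started from region lists in build dm6 that the authors deposited. Each replicate list and the pooled list held 30000 regions, peaks and background together, called against a control, per the deposited text descriptions. The deposited signal value of each region ranked it. The deposited −log10 q-value was the same 3.82 throughout the IDR list, its highest value, and was not used. Aligner, caller, IDR threshold, control, depth and the scale of the signal are not given in the deposited descriptions or labels, nor is it said whether the replicates are separate collections. Lists in build dm3 were not used, since coordinates were never converted.

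Summits were placed on Ensembl release 115 annotation of BDGP6 (18164 genes, without 5809 transposable elements) and sequence was read from the RefSeq release 6 assembly. Overlap meant at least 1 bp. Motif windows reached 50 bp to either side of a summit or centre, and windows were weighted by G+C in bins of 5 percentage points. Intervals are exact Clopper-Pearson intervals at 95% and cover counting error only. No tests were made, as members are not replicates. Code ran in Python 3.11.15 with numpy 2.4.6, pandas 2.3.3, scipy 1.17.1 and matplotlib 3.10.9, and the overlap and the motif search were checked on simulated data. The location rule was checked at random positions of the genome against a direct reading of the same annotation. The replicates' highest 2226 regions, other distance limits, gene sets, windows and signal limits served as alternatives.

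The members, the 15 gene lists and the 25 motifs were chosen with earlier results of these data known. Genes named are hosts of the 20 strongest members, hosts with the most members, up to 4 members of each list by signal, the extremes in distance and in replicate rank, and members with most homeodomain cores. Hosts of GTAAACA and further members of the EGFR, FGF and Ras list were named after their values were seen. Where several genes cover a summit, the summit counts for each. Results of 1 gene list and the sequence of 1 window are not reported here.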

Additional observations from a re-analysis of the deposited data

How the results depend on the processing

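Of 79 values recomputed under an alternative for 11 results, 40 were classed as the same and 39 as moved. None changed sign, but only the median log2 ratio of the replicates could do so, as the other results cannot be negative. A count within 1.5 times, or a log2 ratio within the spread across members, was classed as the same. For other results, a value classed as moved could still lie within counting error. The TAATTA shares of 8.69% and 7.81% below were classed as moved but lay inside the interval of 6.84% to 12.5%, whereas 6.28% lay below it. Mean G+C of 34.88% was also classed as moved, with an SD of 7.27 across windows. With more than 1000 bp in place of 2000 bp from any TSS, there were 13.1 summits per Mb, 8.69% held TAATTA, 60.2% lay in the first intron, the nearest other IDR summit was at a median of 7081 bp and 6.51% of pooled regions were IDR peaks. With more than 5000 bp these were 7.32 per Mb, 6.28%, 52.2%, 10348 bp and 5.27%, for 207 summits and 45 hosts of 2 or more. Among the 1113 strongest IDR peaks there were 192 summits at 4.64 per Mb, with a median signal of 128, 97.4% in both replicates, 7.81% with TAATTA, 31 hosts of 2 or more, 62.0% in the first intron and 17250 bp to the next summit. A cut by signal by itself lowers the count, the density and the number of hosts. It also raises the signal, the share in both replicates and the distance to the next summit, sought within the cut list.

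Protein-coding genes alone gave 11.2 per Mb. Peaks wholly outside exons gave 10.6 per Mb and 6.35% of pooled regions. An overlap of at least 50% of both intervals gave 59.6% in both replicates. First introns of any transcript held 67.0%. TAATTA within 25 bp of the summit gave 5.36% and within 100 bp 13.6%, where G+C was 36.3%.

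Using a single replicate gave 10.56 to 10.63 summits per Mb, a median signal of 39.3 to 55.8, TAATTA at 7.32% to 7.73% and 5.93% to 5.94% of regions. There, G+C was 33.95% to 34.88%, the first intron held 54.1% to 56.8% and the next summit lay at a median of 7781 to 8327 bp. The cause of these differences was not tested. No paired analysis was possible because the samples form a single group. Depth is unknown, so a region outside the list cannot be called unbound.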
